A study of Homo sapiens with 6 samples.

Results

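The 32 genes that encode the human Mediator complex were described by the module each subunit belongs to. They were taken by gene symbol from the protein-coding entries of the count table, which lists 29122 genes; the rule used the symbol alone. All 32 were in the table, and all passed the filter on low counts that left 15907 genes for testing. By textbook assignment 7 subunits were placed in the head, 9 in the middle, 9 in the tail and 6 in the kinase module, with MED14 as the scaffold. Sources differ on MED19 and on MED27 to MED30, which some place in the head. The libraries came from A549, a human lung carcinoma epithelial line, with 3 control and 3 BCLAF1-depleted libraries of polyadenylated RNA. Control cells stably carried a lentiviral hairpin against firefly luciferase, a gene that human cells lack, and depleted cells a lentiviral hairpin against BCLAF1, a nuclear protein linked to transcription and RNA processing. The series title joins BCLAF1 to the Mediator subunit MED23, so the comparison asks how Mediator transcripts differ once BCLAF1 is lowered.

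Mediator is a large assembly that carries signals from DNA-bound activators to RNA polymerase II. The head and middle modules contact the polymerase, the tail holds many of the surfaces that activators bind, and MED14 runs through the complex as its backbone. The kinase module, made of cyclin C, CDK8 or CDK19, MED12 and MED13 or MED13L, docks reversibly on the core and limits its contact with the polymerase.

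BCLAF1, the target, went from 211.1, 199.0 and 203.2 CPM over the controls to 39.0, 35.7 and 53.1 CPM over the depleted libraries. Levels in each library are always given in the order of replicates 1 to 3. CPM are counts scaled to library size, here with TMM factors that correct for differences in library make-up. This is a log2 fold change of -2.26 ± 0.16 (SE, edgeR quasi-likelihood test, Benjamini-Hochberg adjusted p = 2.31e-05), so the target was low in each library labelled depleted. Library totals ranged from 33409158 to 43928927 counts, and the lowest count of any Mediator gene in any library was 75. On the first principal component, which held 68.3% of the variance, depleted replicate 1 lay at 19.4, between the controls (-43.6 to -40.9) and the other depleted libraries (53.4 and 54.2). On the second, with 13.4%, depleted replicate 3 lay at 35.3, depleted replicates 1 and 2 at -23.7 and -20.0, and the controls at 0.19 to 6.76. Depleted replicate 3 also had the lowest TMM factor, 0.795, against 0.939 to 1.10 in the other libraries. The epithelial keratins KRT8 and KRT18 were very high in both groups, whereas KRT19 rose from 0.280 to 0.616 CPM (log2 fold change 1.13, edgeR adjusted p = 0.0495). At these low levels the KRT19 call was lost in DESeq2, in limma-voom and without any one control, among other fits. Summed leukocyte markers were 0.767 to 1.06 CPM in controls and 1.62 to 2.03 CPM in depleted libraries, with PTPRC too low to test and ITGAM called higher (0.98, edgeR adjusted p = 0.0207). Endothelial markers summed to 1.56 to 2.13 CPM and 1.97 to 2.62 CPM, with CDH5 called higher (1.20, edgeR adjusted p = 0.00822) and PECAM1 lower (-0.89, edgeR adjusted p = 0.0359). Fibroblast markers, mainly COL1A1, summed to 22.2 to 24.8 CPM in controls and 14.4 to 16.1 CPM in depleted libraries, and the part of any of these in the results was not tested. Nothing in the labels says that replicates were separate cultures or clones, so that p-values rest on a spread between libraries that may be technical. In bulk RNA, fewer cells of a kind and less RNA per cell cannot be told apart.

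Of the 32 Mediator genes, 4 were higher and 6 lower in depleted cells at an adjusted p under 0.05, and 22 were not called. Among all tested genes 17.8% were called higher and 18.0% lower (35.8% in either direction), against 12.5% and 18.8% of the Mediator genes. The shares of Mediator genes called were thus near or below those of all genes. When libraries were scaled by their totals alone, the median of all genes moved to -0.21, and 8.07% of genes were higher and 23.0% lower. In that fit 2 Mediator genes were higher and 9 lower. The genes called higher were MED11 and MED18 of the head and MED19 and MED31 of the middle. Those called lower were MED17 of the head, MED1 of the middle, and MED12, MED13, MED13L and CDK8 of the kinase module. No tail subunit was called at this threshold. The median log2 fold change was -0.18 over the 32 genes, against 0.02 over all tested genes.

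**Figure D1:**
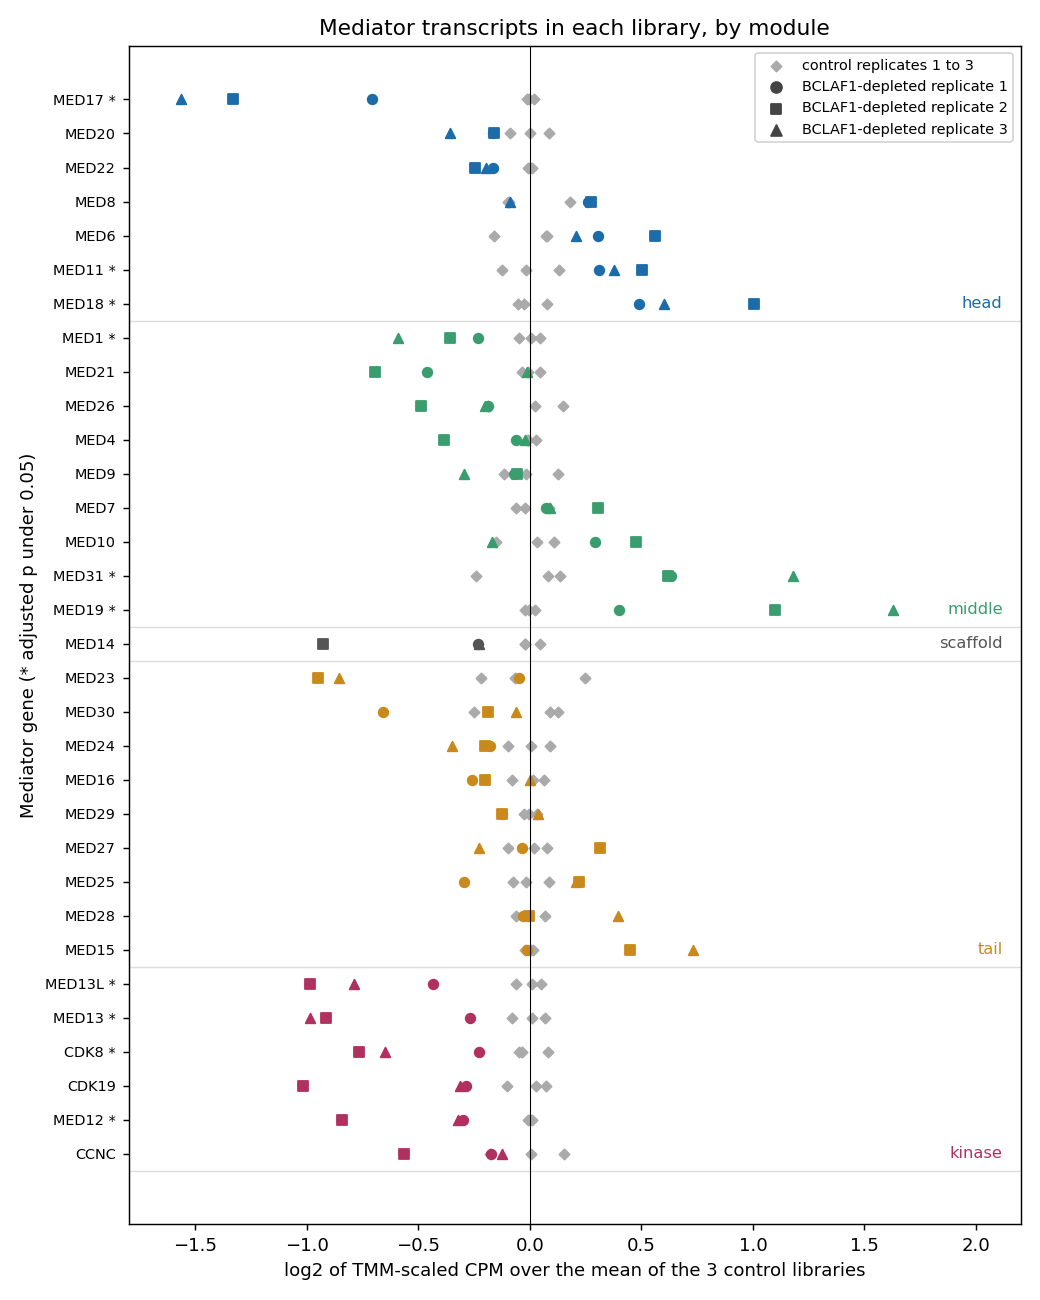
Each Mediator gene's level in each library, as log2 of TMM-scaled CPM over the mean of the 3 control libraries, grouped by module; grey diamonds are control libraries, coloured symbols are BCLAF1-depleted libraries, and an asterisk marks an adjusted p under 0.05. All 6 kinase module genes lie below 0 in every depleted library, whereas the head and middle hold genes on both sides.

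The kinase module held most of the Mediator genes called lower. In depleted cells 4 of its 6 genes were lower and none was higher (0 also at an unadjusted edgeR p under 0.05, in DESeq2 and in limma-voom), with a median log2 fold change of -0.52 against -0.10 over the other 26 Mediator genes. Each of the 6 lay below its control mean in each of the 3 depleted libraries. In 5 of the 6 the depleted libraries did not overlap the controls and lay below them. Of all tested genes, 18.0% were called lower, and 26.6% had depleted libraries wholly below the controls.

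MED13L and MED13 are paralogous subunits that link the kinase module to the core. MED13L (ENSG00000123066.6, chr12:115953872-116277719 on GRCh38, minus strand) measured 75.9, 73.6 and 70.1 CPM in the controls and 54.2, 37.0 and 42.4 CPM in depleted cells. It fell with a log2 fold change of -0.72 ± 0.15 (SE, edgeR adjusted p = 0.00569). MED13 (ENSG00000108510.8, chr17:61942605-62065282, minus strand) measured 30.1, 28.9 and 27.2 CPM and then 23.8, 15.2 and 14.5 CPM. Its log2 fold change was -0.68 ± 0.18 (edgeR adjusted p = 0.0169). In both genes all depleted libraries were below all controls, and depleted replicate 1 had fallen least.

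MED12, which activates the module's kinase, measured 24.1, 23.9 and 24.3 CPM in the controls. The depleted libraries measured 19.6, 13.4 and 19.3 CPM. Its log2 fold change was -0.47 ± 0.15 (edgeR adjusted p = 0.0371). The MED12 controls were close to each other, and depleted replicate 2 was the lowest library.

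CDK8, a catalytic subunit, measured 10.2, 11.0 and 10.1 CPM in the controls and then 8.92, 6.13 and 6.66 CPM in the depleted libraries. It fell with a log2 fold change of -0.53 ± 0.16 (edgeR adjusted p = 0.0302). CDK19, the alternative catalytic subunit, measured 9.50, 10.7 and 10.4 CPM and then 8.35, 5.04 and 8.20 CPM. CDK19 gave -0.50 ± 0.19, short of the threshold (edgeR adjusted p = 0.0625), although the groups did not overlap. CCNC, which encodes cyclin C, gave -0.28 ± 0.15 (edgeR adjusted p = 0.166) with overlapping groups.

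Within each paralogue pair the balance did not differ detectably. With both members of a pair read in one library, scaling drops out. The ratio of CDK8 to CDK19 counts was 1.07, 1.03 and 0.972 in control libraries and 1.07, 1.22 and 0.812 in depleted ones. The difference in mean log2 ratio, -0.0082, was far smaller than the depleted SD of 0.297 (exact two-sided permutation test, p = 0.9). For MED13 to MED13L the count ratio was 0.396, 0.392 and 0.388, then 0.440, 0.412 and 0.342, a difference of 0.013 in mean log2 ratio (exact two-sided permutation test, p = 1.0). Both p-values adjusted over the 2 pairs were 1.0, and 3 against 3 libraries cannot give a p below 0.1. Compared per length, the authors' FPKM placed CDK8 at 2.14 times CDK19, and MED13 at 0.533 times MED13L, in controls.

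The calls in the kinase module changed when single libraries were left out, as did those over all genes. Only MED13L was still called after leaving out control replicate 1, control replicate 2 or depleted replicate 2, so that the count of 4 became 1. It became 2 without control replicate 3 or depleted replicate 3, and 5 without depleted replicate 1. Over these 6 fits the adjusted p of MED12 rose to 0.106 at most, that of MED13 to 0.0669 and that of CDK8 to 0.112, while all 3 kept a negative fold change. Of these fits CDK19 was called in the one without depleted replicate 1 (-0.65, edgeR adjusted p = 0.0214). In that fit 25.8% of all tested genes were called lower, against 18.0% with no library left out. Without depleted replicate 2 or 3 the share of all genes was 12.7% or 15.2%. Without control replicate 1, 2 or 3, genes called lower numbered 1549, 1555 or 1669, against 2870 with all libraries. With all libraries, DESeq2 and limma-voom each called 5 of the 6 genes lower, CDK19 included. A fit with fewer libraries also has less power.

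**Figure D2:**
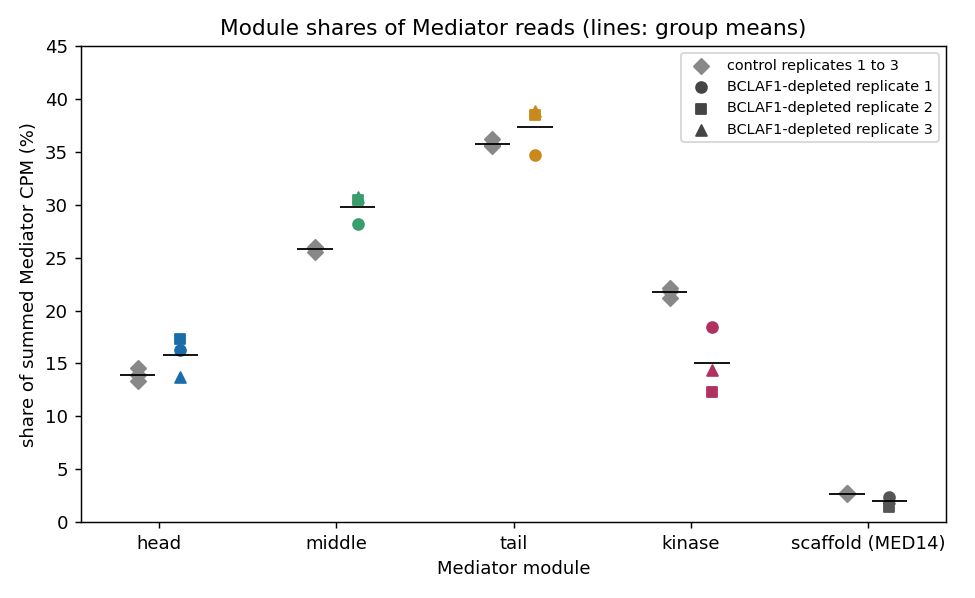
Share of the summed TMM-scaled CPM of all 32 Mediator genes that each module took in each library, in percent. The kinase module share is 21.2% to 22.2% in the controls and 12.3% to 18.4% in the depleted libraries.

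As a share of all Mediator CPM, the kinase module took 21.9%, 21.2% and 22.2% over the controls. Over the depleted libraries it took 18.4%, 12.3% and 14.4%. The summed level of the 32 genes was 849.0 ± 15.5 CPM (SD, n = 3) in controls and 836.8 ± 34.6 CPM (SD, n = 3) in depleted cells. The sum over the kinase module went from 184.4 ± 3.07 CPM to 125.4 ± 23.0 CPM (SD, n = 3 each). The middle module took 25.6% to 26.0% of Mediator CPM in controls and 28.2% to 30.8% after depletion, with the groups apart. Without MED19 the other 8 middle genes summed to 184.4 ± 6.54 CPM in controls and 173.2 ± 11 CPM in depleted cells (SD, n = 3), so the gain rested on MED19. In the plot of module shares the kinase module and MED14 were lower in every depleted library than in any control. A sum over CPM weights long and abundant transcripts more, and these shares are a description without a test.

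The head module held the largest fall and some of the rises. MED17, an essential head subunit that interacts with other head subunits and activators, measured 8.78, 8.82 and 8.96 CPM in controls and 5.42, 3.52 and 2.99 CPM in depleted cells. The gene (ENSG00000042429.9, chr11:93784227-93814963, plus strand) fell by 1.15 ± 0.21 on the log2 scale (SE, edgeR adjusted p = 0.00321). All depleted libraries were below all controls, which differed from each other by a coefficient of variation of 1.08%. MED17 and MED13L were the Mediator genes called under every one of 19 alternative count-based settings. A share of 13.0% of the 50-base stretches of MED17 exons also occurs in other genes, mainly the overlapping AP001273.2.

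MED18, a subunit of a mobile part of the head that it forms with MED20, measured 5.41, 4.94 and 5.03 CPM in controls and 7.18, 10.3 and 7.77 CPM after depletion. It rose by 0.71 ± 0.17 on the log2 scale (edgeR adjusted p = 0.0101). The call was lost without control replicate 2 (0.68, edgeR adjusted p = 0.05005) and with library totals as the only scaling (edgeR adjusted p = 0.0885). Its partner MED20 went the other way without passing the test, at -0.23 ± 0.13 (edgeR adjusted p = 0.199). The depleted libraries were all above the controls for MED18 and all below them for MED20.

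MED11, a small subunit that pairs with MED22, rose from 14.7 ± 1.31 to 19.4 ± 1.33 CPM (SD, n = 3), a log2 fold change of 0.40 ± 0.13 (SE, edgeR adjusted p = 0.0321). It was not called without any one control or without depleted replicate 2, at 0.33 to 0.46 (edgeR adjusted p = 0.069 to 0.142), nor with library totals (edgeR adjusted p = 0.483). On the opposite strand CXCL16 and AC091153.4 overlap 36.9% of MED11 exon bases, and no source used here gives the strand setting of the counting. CXCL16 measured 11.9 and 12.6 CPM in the 2 groups (adjusted p = 0.599). MED22 gave -0.20 ± 0.11 (edgeR adjusted p = 0.177), and MED8 gave 0.16 ± 0.14 with overlapping groups (edgeR adjusted p = 0.413). MED6, a conserved head subunit next to the middle, measured 43.9, 43.9 and 37.3 CPM and then 51.6, 61.5 and 48.0 CPM. At 0.37 ± 0.13 it lay just short of the threshold (edgeR adjusted p = 0.0542), with no overlap between the groups. It was called without depleted replicate 1 (0.38, edgeR adjusted p = 0.0486) or replicate 3 (0.44, edgeR adjusted p = 0.0337).

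In the middle module MED19 had the largest rise. MED19 (ENSG00000156603.13, chr11:57703714-57712323, minus strand), a subunit near the hook that contacts the polymerase's C-terminal domain, measured 34.9, 34.5 and 35.6 CPM in controls. The depleted libraries measured 46.2, 75.0 and 108.3 CPM. The log2 fold change was 1.13 ± 0.25 (SE, edgeR adjusted p = 0.00729). Its depleted libraries were widely spread, with a coefficient of variation of 40.6% against 1.51% in controls, but each lay above the controls.

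MED31, a small conserved middle subunit, measured 4.14, 3.31 and 4.30 CPM in controls, and then 6.07, 6.01 and 8.88 CPM. It rose by 0.83 ± 0.20 (SE, edgeR adjusted p = 0.0103), with no overlap between the groups. The call was lost without control replicate 2 (edgeR adjusted p = 0.0537). TXNDC17, on the opposite strand, covers 58.4% of MED31 exon bases and averaged 21.0 CPM in controls and 25.3 CPM in depleted cells. Its log2 fold change was 0.27 ± 0.12 (edgeR adjusted p = 0.118), and its part in the MED31 counts was not tested.

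MED1, the subunit through which nuclear receptors bind Mediator, measured 64.5, 62.7 and 60.4 CPM and then 53.2, 48.8 and 41.5 CPM. It fell by 0.39 ± 0.12 on the log2 scale (SE, edgeR adjusted p = 0.0349), and the groups did not overlap. The call was lost without any one control, depleted replicate 2 or depleted replicate 3 (-0.30 to -0.42, edgeR adjusted p = 0.0594 to 0.134). The other 6 middle genes did not pass the test, with log2 fold changes from -0.36 in MED21 to 0.23 in MED10. Without depleted replicate 3 both were called, MED21 at -0.57 (edgeR adjusted p = 0.0246) and MED10 at 0.39 (edgeR adjusted p = 0.0447). Among them were MED7 (0.16), MED4 (-0.15), MED9 (-0.14) and MED26 (-0.29), which recruits elongation factors. For MED26, 39.1% of its 50-base exon stretches also occur in overlapping read-through genes, so its counts are uncertain.

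MED14, the scaffold, measured 23.7, 22.7 and 22.6 CPM in controls and 19.6, 12.1 and 19.6 CPM in depleted cells. At -0.43 ± 0.18 it was short of the threshold (edgeR adjusted p = 0.0816), and without depleted replicate 1 it was called lower (-0.56, edgeR adjusted p = 0.0281). All depleted libraries were nonetheless below all controls, with replicate 2 the lowest.

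None of the 9 tail genes was called by edgeR at an adjusted p under 0.05, nor by DESeq2 or limma-voom. At an unadjusted p under 0.05 edgeR gave 1 higher, MED15, and 1 lower, MED23. MED23 (ENSG00000112282.16, chr6:131573966-131628229, minus strand), the tail subunit of the series title and the one that receives signals from the activator ELK1, measured 6.0, 6.67 and 8.27 CPM in controls. In depleted replicates 1 to 3 it measured 6.76, 3.61 and 3.85 CPM. Depleted replicate 1 lay among the controls while the other depleted libraries lay below them. The log2 fold change was -0.56 ± 0.24 (SE, edgeR adjusted p = 0.0955), and without depleted replicate 1 it was -0.93 (edgeR adjusted p = 0.00306). Without that library 23.0% of all tested genes were called higher and 25.8% lower, against 17.8% and 18.0% with all libraries.

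MED15, which binds the sterol regulators SREBF1 and SREBF2 and SMAD proteins, measured 68.3, 69.6 and 70.0 CPM and then 68.7, 94.6 and 114.9 CPM. Depleted replicate 1 again matched the controls, and the overall difference was 0.42 ± 0.17 (edgeR adjusted p = 0.0787). Without that library it was 0.57 (edgeR adjusted p = 0.00241). MED24 gave -0.24 ± 0.11 with separate groups (edgeR adjusted p = 0.123). The other tail genes ranged from -0.28 in MED30 to 0.13 in MED28. For MED28 the opposite-strand gene FAM184B overlaps 32.1% of its exon bases, and 22.9% of the 50-base stretches of MED27 also occur in the pseudogene CRSP8P.

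Groups of libraries did not overlap in 18 of the 32 genes, which were 5 higher and 13 lower. Over all tested genes 25.3% did not overlap in the higher direction and 26.6% in the lower, against 15.6% and 40.6% of Mediator genes. All 10 called genes were among these 18. Spread was larger in depleted cells, with a median coefficient of variation of 19.2% against 5.21% in controls and a larger SD in 29 of the 32 genes. In all 6 genes called lower, depleted replicate 1 had the smallest fall.

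Fold changes went with exon length, across Mediator as across all genes. The 4 genes called higher had exon lengths of 1477 to 2103 bases and at most 5 exons. The 6 called lower had 3538 to 37364 bases and at least 13 exons. Over the 32 genes the log2 fold change correlated with log2 exon length at r = -0.61 (Spearman's rho = -0.58, n = 32 genes that share the same 6 libraries), as a description across genes that are not independent. Over the same 32 genes rho was -0.69 with gene span, from start to end of the gene, and -0.58 with exon number. Over 15775 tested genes with a length, r with log2 exon length was -0.26. In the shortest length quintile the median log2 fold change was 0.35 and 28.6% were called higher, where 4 of 7 Mediator genes were. In the longest quintile the median was -0.19 and 30.1% were called lower, where 3 of 6 Mediator genes were.

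**Figure D3:**
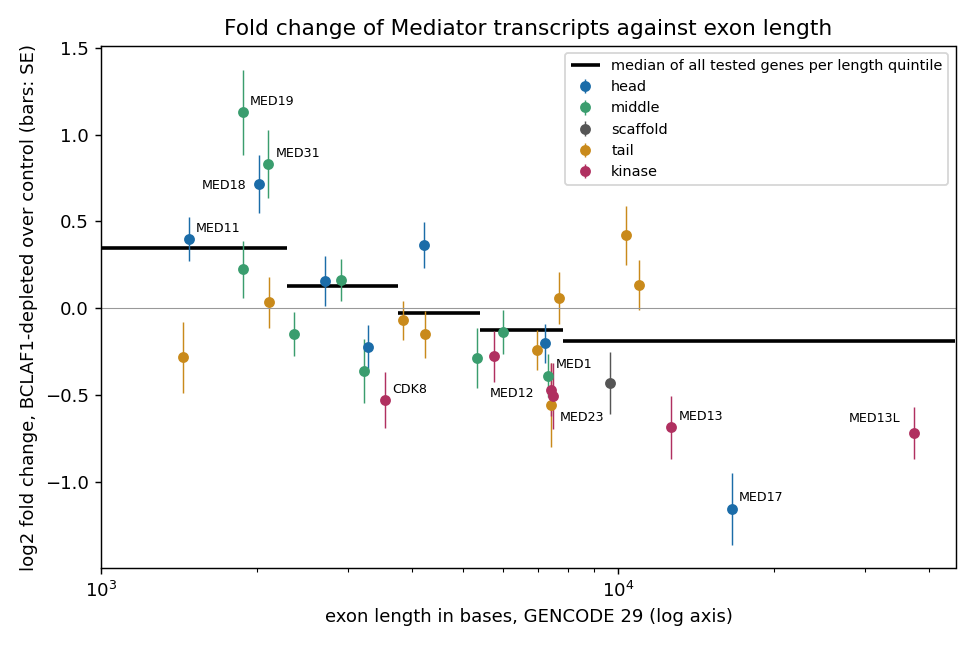
Log2 fold change with its SE for each Mediator gene against its exon length in bases (log axis), coloured by module; black bars are the median of all tested genes in each length quintile. Called genes are higher only in the shortest quintile, and MED17, MED13 and MED13L lie below the median bar of the longest.

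The trend of counts with GC content and exon length was removed per library by a smooth offset and the same test repeated. In that fit 5 Mediator genes were higher and 3 lower, where 18.1% of all tested genes were higher and 15.9% lower. MED17 (-0.87, edgeR adjusted p = 0.00591), MED13L (-0.51, edgeR adjusted p = 0.0140) and CDK8 (-0.53, edgeR adjusted p = 0.0210) were still lower. MED19 (0.84, edgeR adjusted p = 0.0172), MED31 (0.73, edgeR adjusted p = 0.0158) and MED18 (0.47, edgeR adjusted p = 0.0369) were still higher, and MED6 and MED15 were newly called higher, at 0.51 (edgeR adjusted p = 0.0232) and 0.54 (edgeR adjusted p = 0.0248). MED11, MED1, MED12 and MED13 were no longer called, with MED11 at 0.07. The kinase module median became -0.39. Over the 32 genes the fold changes of this fit still correlated at r = -0.34 with log2 exon length and -0.46 with log2 gene span. CDK8, with 3538 exon bases, was in the length quintile whose median over all genes was 0.13, and was the kinase module gene whose value did not move in this fit.

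Per length, transcripts of the complex were far from equal. In control cells the FPKM deposited by the authors, which divide counts by gene length and library size, ran from 26.9 ± 2.30 (SD, n = 3) for MED10 to 1.20 ± 0.207 for MED23, a ratio of 22.4. After MED10 came MED19 at 22.2 ± 0.469, MED29 at 20.9 ± 0.416, MED15 at 19.8 ± 0.350 and MED24 at 15.7 ± 0.950. At the foot were MED17 at 1.31 ± 0.023, MED28 at 1.31 ± 0.060 and MED26 at 1.30 ± 0.156, just above MED23. Among the 31 pairs of neighbours in this order, the ranges of 18 overlapped, so most neighbouring ranks were not resolved. Ranked by the mean of the depleted libraries, MED19 came first, MED31 moved from rank 27 to 17 and MED18 from 24 to 16. MED17 moved from 29 to 32. In depleted replicate 1 MED10 was still above MED19, at 30.85 against 27.45 FPKM. FPKM depend on the gene length the authors used, which no source used here gives.

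**Figure D4:**
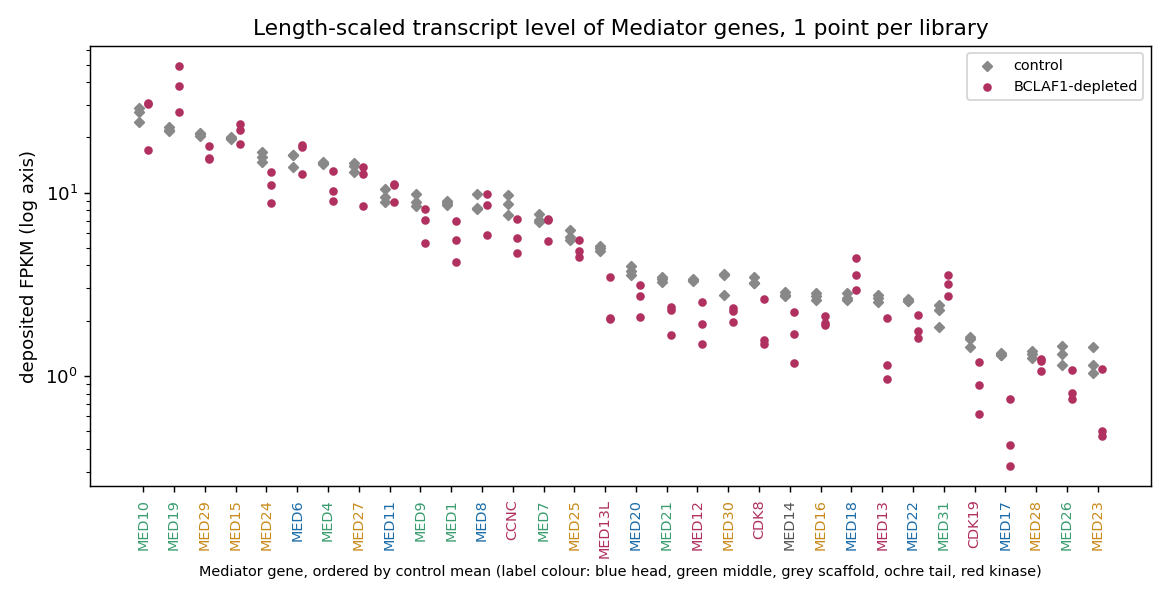
Deposited FPKM of each Mediator gene in control and BCLAF1-depleted libraries (log axis), ordered by control mean. MED10 is at the top and MED23 at the foot of the control order, 22.4 times apart.

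The promoters of Mediator genes were read for a few simple motifs. RefSeq windows of 300 bases, 250 before to 50 after the start, were found for 24 of the 32 genes on GRCh38.p14. Stretches of 100 bases that end before the transcript starts are shown for MED17, MED18, MED19, MED31, MED13L and CDK8, which were called also after the length trend was removed, and for MED23. Capitals mark matches on either strand to CCGGAAG (the core of ETS sites), GGGCGG (SP factors) and CCAAT (NFY), with touching matches run together, and the MED18 stretch holds none.
MED17, chr11:93784127-93784226, plus strand: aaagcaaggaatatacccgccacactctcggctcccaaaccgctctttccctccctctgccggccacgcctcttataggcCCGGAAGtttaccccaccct
MED18, chr1:28328902-28329001, plus strand: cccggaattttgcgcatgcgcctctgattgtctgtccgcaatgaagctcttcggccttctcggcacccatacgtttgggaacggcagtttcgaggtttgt
MED19, chr11:57712324-57712423, minus strand: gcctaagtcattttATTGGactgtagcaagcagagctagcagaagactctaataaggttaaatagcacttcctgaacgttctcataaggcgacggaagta
MED31, chr17:6651635-6651734, minus strand: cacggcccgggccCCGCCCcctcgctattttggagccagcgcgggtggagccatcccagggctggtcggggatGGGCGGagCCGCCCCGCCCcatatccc
MED13L, chr12:116277720-116277819, minus strand: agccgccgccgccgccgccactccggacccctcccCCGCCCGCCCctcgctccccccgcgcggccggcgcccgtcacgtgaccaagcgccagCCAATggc
CDK8, chr13:26254004-26254103, plus strand: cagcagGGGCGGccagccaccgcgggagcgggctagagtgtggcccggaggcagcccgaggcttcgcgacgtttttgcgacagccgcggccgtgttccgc
MED23, chr6:131628314-131628413, minus strand: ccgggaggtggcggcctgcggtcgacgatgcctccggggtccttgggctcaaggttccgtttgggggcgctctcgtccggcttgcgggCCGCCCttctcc

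Over the whole windows, CCGGAAG was found in 7 of the 24 genes, against 12.2% of the 27305 genes with a window. They were MED11, MED17, MED18, MED7, MED31, MED15 and MED29. Of the genes with a window these were 3 of 4 called higher, 1 of 5 called lower and 3 of 15 not called. None of the 5 kinase module genes with a window carried it. Mediator windows held a median of 21 CG pairs against 14 over all windows, and the part of this in the shares was not tested. GGGCGG was found in 16 of 24 (48.3% of all genes), including 4 of 5 kinase module genes. CCAAT was found in 9 (39.7% of all genes) and TATAAA in 2 (13.99%). AAGATGGC, the core of YY1 sites, was in 5 (3.52% of all genes), and TGACGTCA, the CRE motif, in MED18 alone (2.25% of all genes). A match is a description of letters in these windows, and motifs may overlap one another.

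Genes that work with Mediator were read from lists written from general knowledge. Earlier results of these data were known when the lists were proposed, so their counts are a description only. The counts stand beside the 17.8% of all tested genes called higher and 18.0% called lower. Of 11 tested RNA polymerase II subunits, 2 were higher and 1 lower, with a median log2 fold change of 0.22. POLR2L rose by 1.04 ± 0.28 (edgeR adjusted p = 0.0166) and POLR2I by 0.67 ± 0.15 (edgeR adjusted p = 0.0079), whereas POLR2B, the second largest subunit, fell by 0.60 ± 0.15 (edgeR adjusted p = 0.0114). Neither rise was called once the trend with GC and length was removed, POLR2L at 0.65 (edgeR adjusted p = 0.0552) and POLR2I at 0.31 (edgeR adjusted p = 0.0782). Among 14 elongation partners none was higher in edgeR, DESeq2 or limma-voom (2 at an unadjusted edgeR p under 0.05) and 5 were lower in edgeR, with a median of -0.18. ICE1 and ELL2 of the ELL complexes (-0.85 and -0.83) and CCNT1, the cyclin of P-TEFb (-0.81), fell most. Without control replicate 1, 3 of these partners were lower, and without depleted replicate 1, 2 were higher. Over all tested genes, too, fewer were lower in the former fit and more were higher in the latter.

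Of 10 tested genes of cohesin, the ring that Mediator is known to meet at enhancers, and its loader, none was higher in edgeR, even unadjusted, or in DESeq2 or limma-voom. In edgeR 5 were lower, with a median of -0.49, and 3 were without control replicate 1 or without control replicate 2. RAD21 measured 254.5 ± 14.7 CPM in controls and 79.9 ± 27.1 CPM after depletion (SD, n = 3), a log2 fold change of -1.67 ± 0.22 (SE, edgeR adjusted p = 0.000628). PDS5A (-0.89) and STAG2 (-0.85) fell as well. Among 16 activators that bind Mediator 3 were higher and 5 lower, led by VDR (1.08), THRA (-0.81) and SREBF1 (-0.74), each bound through MED1 or MED15. The higher count became 1 without any one control or with library totals as the scaling. Fewer of all tested genes were called higher in these fits as well, and fewer were called lower without any one control.

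Of 9 partners and targets of MED23, 1 was higher and 3 were lower, and the lower count became 1 without control replicate 3. EGR1, a growth factor response gene that needs MED23 in other cells, rose by 1.63 ± 0.17 (edgeR adjusted p = 0.000216). FOS fell by 1.33 ± 0.20 (edgeR adjusted p = 0.0012) and ELK1, the activator that binds MED23, by 0.61 ± 0.15 (edgeR adjusted p = 0.0113). Of 6 regulators and substrates of the kinase module, 1 was higher and 3 were lower, among them NOTCH1 (-0.62) and STAT3 (-0.51). Neither count was stable: leaving out a library gave 0 to 3 higher, with 0 without any one control and 3 without depleted replicate 1. It gave 0 lower without control replicate 1 and 1 lower without control replicate 2, control replicate 3 or depleted replicate 2. Calls over all tested genes moved the same way in these fits, falling in both directions without any one control. Without depleted replicate 1, 23.0% of all tested genes were higher, against 17.8% with all libraries. Without depleted replicate 2, 12.7% were lower, against 18.0%. Of the genes named from these lists, POLR2L, POLR2B, ELK1, NOTCH1 and STAT3 each lost the call in at least 1 fit that left out a library, with adjusted p of 0.0885 at most and the sign kept. POLR2I lost it with library totals (edgeR adjusted p = 0.0685).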

How the data were processed

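Polyadenylated RNA of 3 control and 3 BCLAF1-depleted libraries was sequenced after directional library preparation, per the labels' protocols; sample titles write "si" but the protocol describes hairpins, which was followed. The authors deposited whole-number read counts for 29122 genes and FPKM for 28878. The submitters' processing notes name GRCh38, bcl2fastq, TopHat2 and edgeR. The sources used here give no version, counting tool, annotation release or strand setting.

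Counts were tested with edgeR 4.0.16 (R 4.3.3), by the quasi-likelihood fit with TMM scaling, filterByExpr (minimum count 10, minimum total 15) and Benjamini-Hochberg adjustment over 15907 genes; calls had an adjusted p under 0.05. A log2 fold change over the root of F gives its SE. The biological coefficient of variation common to all genes was 15.3%. At these depths 3 counts equal 0.0683 to 0.0898 CPM, for counting error only. Exon lengths, GC content and positions came from GENCODE 29, with values for 99.2% of tested genes. Exon length counted each base in an exon of any transcript of the gene, and GC content was that of the longest transcript. For MED17 the exon length was 16610 bases, where the longest transcript has 5142. The trend offset used mgcv 1.9.3 (basis size 8). Alternatives used DESeq2 1.42.0 and limma 3.58.1, with log2(FPKM + 1) or log2(FPKM + 0.1) after a filter of 0.5 FPKM in 3 libraries. The fit was also run on simulated counts, with a small set of genes changed by a fixed amount and the same dispersion in both groups. That setting differs from these data, where far more genes were called and depleted libraries spread more.

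All 32 Mediator genes and BCLAF1 were named, and up to 3 called genes with the largest change per other list. The rule for members uses symbols only, but members and lists were proposed with earlier results of these data known. TXNDC17 and CXCL16 were chosen after their overlaps were seen. Single results of a few listed genes are not shown.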

Additional observations from a re-analysis of the deposited data

How the results depend on the processing

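MED17 and MED13L were called in all 19 count-based alternatives, MED19 and MED31 in 18, MED18 in 16, CDK8 in 13, MED12 and MED13 in 12 and MED1 and MED11 in 8. No called Mediator gene changed sign in these. There were 2827 genes called higher and 2870 genes called lower. Leaving out a library gave 1383 to 3741 higher and 1549 to 4195 lower, and 1 to 6 Mediator genes higher, 2 to 9 lower and 1 to 5 kinase module genes lower. With library totals as the only scaling 1283 genes and 2 Mediator genes were higher. An adjusted p under 0.01 left 1149 higher and 1287 lower genes, with 1 Mediator gene higher, 2 lower and 1 of the kinase module lower. Removing the GC and length trend left 3 Mediator genes lower, 2 of them in the kinase module.

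Further fits, chosen after seeing the data, removed that trend without 1 depleted library. Without replicate 1, 3723 genes and 7 Mediator genes were higher. Without replicate 2, genes called higher numbered 1975 and genes called lower 1775. Mediator counts were then 1 higher and 2 lower, with 1 of the kinase module lower. Without replicate 3, 2334 genes and 2 kinase module genes were lower. In limma on the deposited FPKM, which depend on other scaling, genes called higher numbered 952 with a pseudocount of 1, 909 with 0.1 and 573 without the filter. Genes called lower numbered 4061, 3869 and 2057 in the same fits. Mediator genes higher were then 2, 1 and 0, and lower 16, 12 and 2. The kinase module had 6 lower genes in both filtered fits and 1 without the filter. With MED19 placed in the head the head median moved from 0.16 to 0.26, and with MED27 to MED30 there it was 0.03. The causes were not tested.

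Whether the replicate numbers pair the libraries was not settled. Deviations of same-numbered libraries correlated weakly, at 0.036, 0.047 and 0.119, although each library correlated best with its own number. Those of differently numbered libraries correlated at -0.076 to 0.033. With the replicate number as a block, genes called higher numbered 2886 and genes called lower 3121, all 10 called Mediator genes were kept and MED6, MED14, MED23 and CDK19 were added. MED23 was called at -0.60 with the block (edgeR adjusted p = 0.0456), at -0.60 without the low-count filter, at -0.93 without depleted replicate 1 and at -0.59 there with the trend removed; leaving out a library ran it from -0.93 to -0.39.

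Signs turned only in genes that were not called. With library totals MED8 was at -0.053, MED7 at -0.064, MED25 at -0.18, MED27 at -0.18 and MED28 at -0.11. In FPKM with pseudocount 1, filtered or not, MED8 was at -0.12, MED7 at -0.12, MED10 at -0.085, MED25 at -0.21, MED27 at -0.25 and MED28 at -0.095. With 0.1 they were at -0.14, -0.13, -0.090, -0.25, -0.27 and -0.16. MED27 was at -0.0071 without the low-count filter, at -0.22 with the trend removed and at -0.24 with trend and block, where MED8 was at -0.0011. With the trend removed and without depleted replicate 1, MED8 was at -0.072, MED10 at -0.035 and MED27 at -0.24; without replicate 2, MED8 at -0.041, MED10 at -0.093, MED27 at -0.33 and CCNC at 0.0036; without replicate 3, MED27 at -0.094 and MED9 at 0.0076. Leaving out a library ran MED25 from -0.025 to 0.19, MED27 from -0.13 to 0.15 and MED28 from -0.018 to 0.20. The log2 ratio difference ran from -0.14 to 0.15 for CDK8 to CDK19 and from -0.063 to 0.12 for MED13 to MED13L. Depth was no limit on detecting these transcripts, whose lowest count was 75, but 3 libraries a group limit small differences.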
